A study of Rattus norvegicus with 12 samples.

Results

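Glycine tRNA fragments were followed in small RNA libraries from serum exosomes of rats given a compound toxic to the testis. The features were all entries of the raw count tables named as a tRNA gene with a glycine anticodon. They numbered 22 of the 3655 features named in either table, and 22 of 329 tRNA genes. The table of the water and EGME libraries listed 22 of them among 3280 features, with 10 GlyGCC, 5 GlyCCC and 7 GlyTCC genes. The table of the oil and CBZ libraries listed 18 of the same genes among 1709 features, with 10 GlyGCC, 5 GlyCCC and 3 GlyTCC genes.

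All animals were male Sprague-Dawley rats aged 9 weeks, bled 24 h after 1 oral dose. The EGME group received ethylene glycol monomethyl ether, a solvent toxic to spermatocytes, at 2000 mg/kg in 10 mL/kg of water, and the water group received that vehicle. The CBZ group received the compound that the labels give by this abbreviation at 400 mg/kg in 5 mL/kg of corn oil, and the oil group received oil alone. Each group had 3 libraries. The labels do not state whether these are different animals, and p-values therefore measure the spread between libraries, which may be technical. The vesicles were pelleted from serum by ultracentrifugation, which also pellets protein complexes that hold RNA. Fewer vesicles and less of an RNA per vesicle cannot be told apart in such libraries.

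A tRNA carries an amino acid to the ribosome, and its anticodon pairs with the codon of the messenger RNA. Under stress, and in many resting tissues, nucleases such as angiogenin cut tRNAs near the anticodon, and the pieces are stable enough to circulate. Pieces from the start of glycine tRNAs, above all GlyGCC, are known to be among the most abundant small RNAs of mammalian serum, and in mice they are also abundant in sperm and in the vesicles of the epididymis. The tables give reads per tRNA gene and do not say which part of the tRNA was read. No tRNA sequence is printed, since the reference tables used here hold none.

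The 22 genes formed a few tiers of counts rather than 22 separate signals. Of the 10 GlyGCC genes 7 (named on chromosomes 3, 10, 13, 17 and 19) and 1 GlyCCC gene (chr2.trna4358-GlyCCC) had nearly the same count in every library. In water library 1 chr10.trna11254-GlyGCC had 28058 reads, chr2.trna4358-GlyCCC 28059 and chr13.trna2238-GlyGCC 28071. Over the 6 water and EGME libraries the highest and lowest of these 8 genes lay 5 to 20 reads apart, at median counts of 9549 to 45840. Separate sets of reads of that size would scatter by about 97.7 to 214 reads, the square root of the count. Over the oil and CBZ libraries the gap was 6 to 11 reads at medians of 4721 to 24784. The 8 genes were therefore described as 1 signal, and the reads under the GlyCCC name of chr2.trna4358-GlyCCC cannot be told apart from those of GlyGCC.

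A second tier held the other 3 GlyGCC genes, chr13.trna2246-GlyGCC, chr13.trna2376-GlyGCC and chr13.trna2377-GlyGCC, which lay within 6 reads of one another in every library. Their counts ranged from 889 reads at chr13.trna2377-GlyGCC in EGME library 1 to 7746 at chr13.trna2246-GlyGCC in water library 2. The third tier was the GlyCCC pair chr2.trna7579-GlyCCC and chr2.trna7585-GlyCCC, with 21 to 114 reads. The remaining GlyCCC genes, chr10.trna705-GlyCCC and chr4.trna2752-GlyCCC, had 0 to 8 reads, and no GlyTCC gene had more than 2. In the RefSeq annotation of the rat assembly GRCr8 the GlyCCC genes number 5, with 3 on chromosome 2 and 1 each on 4 and 10, the same distribution as the names in the tables. For GlyGCC RefSeq lists 22 genes, 16 of them on chromosome 13, where the tables name 4. Outside chromosome 13 the numbers per chromosome were equal. For GlyTCC RefSeq lists 21 genes against 7 named in the tables. Every feature listed by the authors had at least 1 read in its set of libraries. Genes without reads may therefore be missing from the numbers of named genes.

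The deposited totals were 608892 to 1235814 counts in the water and EGME libraries and 196460 to 598200 in the oil and CBZ libraries. EGME library 2 was the deepest and oil library 2 the shallowest, and both stood apart from the other libraries of their groups in the values below.

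To count each anticodon once, the genes listed for it were replaced by their median copy in each library. Genes that are not listed do not enter this median, which therefore depends on which copies were listed. The median copy of GlyGCC falls in the tier of 8 genes, that of GlyCCC in the pair on chromosome 2, and that of GlyTCC at 0 or 1 read. Small RNA reads cover a whole short molecule, so counts were not divided by length. Shares below are percentages of a library total in which every anticodon enters once (159381 to 909269 counts), with exact 95% binomial (Clopper-Pearson) intervals for single libraries. The libraries carry no molecular identifiers, so the intervals cover counting error only.

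The GlyGCC median copy was 28064, 45837 and 43698 reads in water libraries 1 to 3, and 9547, 42941 and 15827 in EGME libraries 1 to 3. It was 15265, 4721 and 24779 reads in oil libraries 1 to 3, and 18842, 20206 and 17073 in CBZ libraries 1 to 3. EGME libraries 1 and 3 were low for their table and EGME library 2 lay within the water range, while oil library 2 was the lowest of all 12. As shares GlyGCC took 4.15%, 7.46% and 8.50% with water and 1.78%, 4.72% and 2.12% with EGME. With oil it took 5.58%, 2.96% and 6.05%, and with CBZ 6.30%, 7.96% and 6.29%. The lowest share, in EGME library 1, had an interval of 1.75 to 1.82%, and the highest, in water library 3, one of 8.42 to 8.57%. Ranked by count among the features of its library, GlyGCC stood at 4, 3 and 3 with water, 8, 3 and 9 with EGME, 5, 10 and 4 with oil, and 5, 3 and 4 with CBZ.

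In order of the group means the summed Gly median copies took 6.87% ± 0.965 with CBZ, 6.72% ± 2.28 with water, 4.88% ± 1.65 with oil and 2.88% ± 1.61 with EGME (SD, n = 3 each). Every neighbouring pair of groups in this order overlapped. With the counts of all copies added as deposited, the listed Gly genes made up 26.5 to 43.0% of the assigned counts with water, 12.99 to 29.3% with EGME, 20.3 to 34.8% with oil and 35.2 to 41.2% with CBZ. The sum over the 10 GlyGCC genes was 208636, 344124 and 325532 with water, 69515, 319219 and 116193 with EGME, 114311, 34952 and 183438 with oil, and 138870, 148977 and 125869 with CBZ. Whether the near-equal copies in these sums repeat the same reads or split them is not stated in the sources used here. The sum over the GlyCCC genes, 28197, 46033 and 43924 with water and 9595, 43156 and 15911 with EGME, was almost entirely chr2.trna4358-GlyCCC. With oil it was 15343, 4837 and 24910, and with CBZ 18921, 20301 and 17155. The GlyTCC sum was 5, 3 and 0 with water, 0, 1 and 4 with EGME, 0, 0 and 1 with oil, and 2, 0 and 0 with CBZ. Taking 3 counts as the limit that a count of 0 allows, the GlyTCC share in the shallowest library could be up to 0.00188% (exact binomial upper bound 0.00231%), so no difference in GlyTCC was detectable at this depth.

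**Figure D1:**
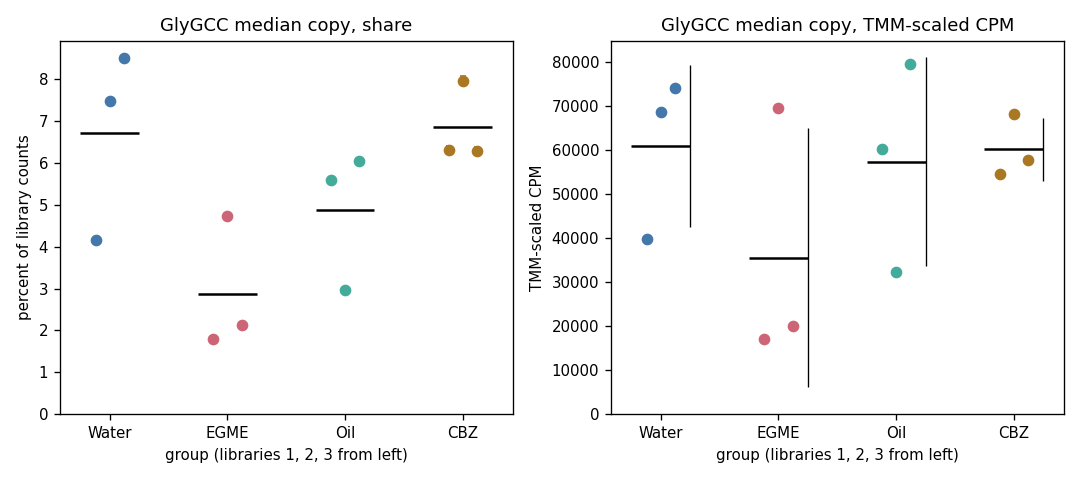
GlyGCC median copy in each library, as percent of library counts (left, error bars are 95% binomial intervals, mostly smaller than the points) and as TMM-scaled CPM (right, horizontal line the mean, vertical line 1 SD, n = 3). EGME library 2 and oil library 2 lie apart from the other libraries of their groups; the right-hand scale was set separately for the water and EGME pair and for the oil and CBZ pair.

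The first comparison asks whether Gly fragments in serum exosomes differ 24 h after EGME. On the TMM scale (CPM, counts adjusted to a common library size and composition) the GlyGCC median copy was 39830, 68556 and 74053 CPM with water and 17024, 69401 and 20105 CPM with EGME. EGME libraries 1 and 3 lay below every water library and EGME library 2 lay within the water range. The means were 60813 ± 18378 and 35510 ± 29391 CPM (SD, n = 3 per group), a log2 difference of -0.78 (SE 0.519, edgeR adjusted p = 0.495). The GlyCCC median copy was 86.6, 141 and 190 CPM with water and 37.4, 170 and 49.5 CPM with EGME, the same order of libraries, with a log2 difference of -0.70 (SE 0.540, edgeR adjusted p = 0.565). The median over all 270 features tested in this fit was -0.07. Neither anticodon passed the threshold of 0.05, and edgeR called 0 of the 270 features (percent called 0), with 47 at an unadjusted p under 0.05 and 12 called by the DESeq2 Wald test. The sums over copies gave -0.79 for GlyGCC (SE 0.464, edgeR adjusted p = 0.382) and -0.77 for GlyCCC (SE 0.460, adjusted p = 0.386), in a fit that called 2.14% of features.

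Gene by gene, 13 of the 22 Gly genes passed the filter on low counts and the other 9 had at most 8 reads in any library. All 13 were lower with EGME, at a median log2 difference of -0.63 against -0.02 over all 330 features tested, and most of them are near-equal copies, so this is not 13 observations. edgeR called 0 of the 13, against 0% of all features, 0 had an unadjusted p under 0.05, and the DESeq2 Wald test also called 0 of them, beside 5.45% of all features. Among all features 59 had an unadjusted p under 0.05. Among GlyGCC genes chr19.trna1527-GlyGCC, the middle one by count, had a log2 difference of -0.63 (SE 0.555, edgeR adjusted p = 0.557), chr19.trna3490-GlyGCC the least negative (-0.63) and chr13.trna2377-GlyGCC the most negative (-0.90, SE 0.608, adjusted p = 0.442). Among GlyCCC genes chr2.trna4358-GlyCCC was at -0.63, chr2.trna7585-GlyCCC at -0.54 and chr2.trna7579-GlyCCC at -0.54.

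The gene-by-gene outcome for EGME depended on 1 library. Without EGME library 2, whose TMM factor of 0.683 was the lowest, edgeR called all 13 Gly genes lower, beside 16.5% of all features. Only EGME libraries 1 and 3 were then set against the water libraries. The library left out had GlyGCC within the water range, so small p-values follow in part from that choice. The tier of 8 genes then differed by -1.46 on the log2 scale (chr10.trna11254-GlyGCC, SE 0.356, edgeR adjusted p = 0.00275). The chromosome 13 tier differed by -2.04 (chr13.trna2377-GlyGCC, SE 0.403, adjusted p = 0.000317) and chr2.trna7579-GlyCCC by -1.34 (adjusted p = 0.0216). With 1 row per anticodon and the same library left out, GlyGCC was at -1.45 (edgeR adjusted p = 0.0532) and GlyCCC at -1.39 (adjusted p = 0.0933), beside 2.68% of features called. Neither anticodon passed the threshold in that fit, where the genes of each anticodon count once. Without EGME library 1 GlyGCC was at -0.42 (edgeR adjusted p = 0.617), and without EGME library 3 at -0.44 (adjusted p = 0.801). With library totals alone and no scaling GlyGCC fell with EGME (log2 difference -1.22, SE 0.352, edgeR adjusted p = 0.0183), beside 8.89% of features called and a median over all features of -0.33.

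For CBZ the same question was put to the oil and CBZ libraries. The GlyGCC median copy was 60271, 32211 and 79387 CPM with oil and 54542, 68100 and 57620 CPM with CBZ. The CBZ libraries all lay between the oil libraries, and oil library 2 was the lowest. The means were 57290 ± 23729 and 60087 ± 7108 CPM (SD, n = 3 per group), a log2 difference of 0.07 (SE 0.409, edgeR adjusted p = 0.915), and the sign turned without oil library 2 (-0.23, adjusted p = 0.747). The GlyCCC median copy was 138, 396 and 192 CPM with oil and 113, 145 and 125 CPM with CBZ. Oil library 2 was the highest for GlyCCC while it was the lowest for GlyGCC. The log2 difference of GlyCCC was -0.91 (SE 0.425, edgeR adjusted p = 0.258), and it was -0.39 without oil library 2 (adjusted p = 0.544). The median over all 188 features tested was -0.15 (0.24 with no scaling, where GlyGCC was at 0.49). edgeR called 0 of them (percent called 0), with 46 at an unadjusted p under 0.05 and 32 called by the DESeq2 Wald test. The sums over copies gave 0.07 for GlyGCC and 0.08 for GlyCCC (edgeR adjusted p = 0.905 for both), since chr2.trna4358-GlyCCC makes up nearly all of the GlyCCC sum.

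Gene by gene, 13 of 18 Gly genes passed the filter and the other 5 had at most 4 reads. The tier of 8 genes was higher and the other 5 genes were lower with CBZ, at a median of 0.15 against 0.12 over all 244 features. edgeR called 0 of the 13, against 0% of all features, 0 had an unadjusted p under 0.05, and the DESeq2 Wald test called 0 of them, beside 9.84% of all features. Among all features 64 had an unadjusted p under 0.05. The GlyGCC genes ran from -0.08 at chr13.trna2377-GlyGCC (SE 0.374, edgeR adjusted p = 0.881) through 0.15 at chr19.trna3490-GlyGCC to 0.15 at chr13.trna2238-GlyGCC (SE 0.336, adjusted p = 0.794). Of the GlyCCC genes chr2.trna4358-GlyCCC was at 0.15, with the GlyGCC genes whose counts it nearly equals, while chr2.trna7579-GlyCCC was at -0.88 (SE 0.466, adjusted p = 0.289) and chr2.trna7585-GlyCCC at -0.89 (SE 0.459, adjusted p = 0.289).

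As an unscaled share of counts the summed Gly signal gave another picture of CBZ. It was 5.59%, 3.00% and 6.06% with oil and 6.31%, 7.98% and 6.30% with CBZ, so every CBZ library lay above every oil library. The difference of 1.98 percentage points had an exact two-sided permutation p = 0.1, the smallest that 3 libraries against 3 allow, and it was 1.04 percentage points without oil library 2. For 25.5% of all features tested the shares were likewise separated in that direction. For EGME the summed share was 4.16%, 7.48% and 8.52% with water against 1.79%, 4.73% and 2.13% with EGME, which overlapped (difference -3.84 percentage points, exact permutation p = 0.2). Over the 6 relations tested on shares and ratios the lowest Benjamini-Hochberg adjusted value was 0.3.

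**Figure D2:**
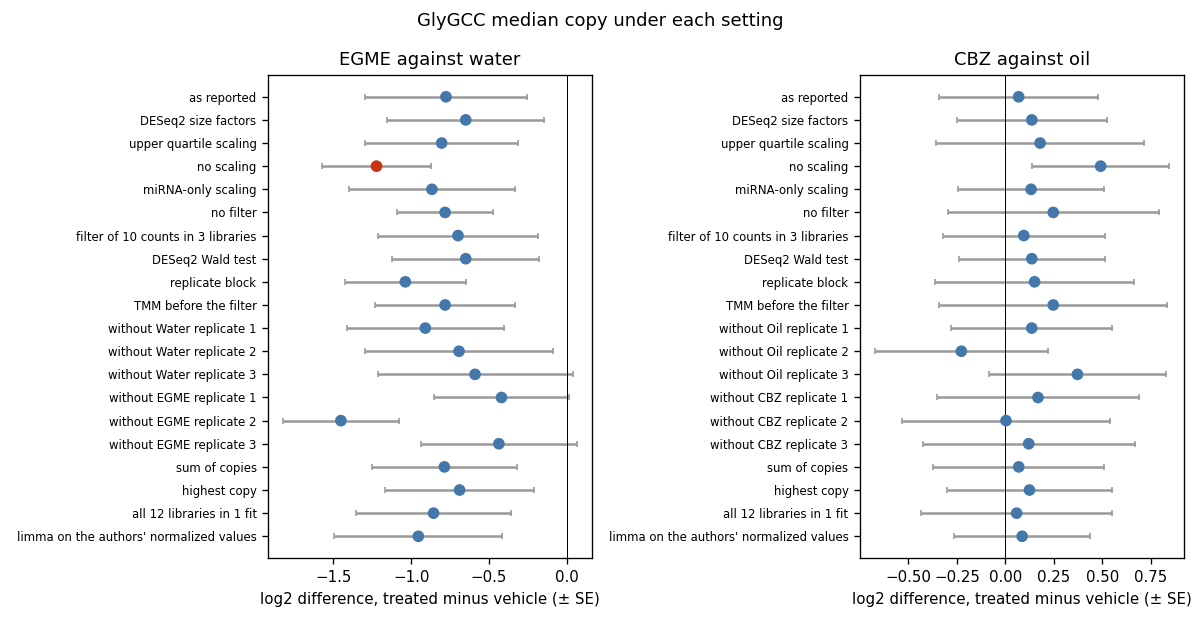
Log2 difference of the GlyGCC median copy, treated minus vehicle (x axis, bars are 1 SE), under each processing setting (y axis). Red marks the setting with an adjusted p under 0.05, which is the EGME comparison with no scaling (-1.22); the CBZ values lie from -0.23 to 0.49.

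The difference between the EGME and CBZ effects was tested over all 12 libraries. For GlyGCC the EGME effect was lower than the CBZ effect by a log2 difference of -0.91 (SE 0.699, edgeR adjusted p = 0.552). Leaving out EGME library 2 gave -1.84, leaving out EGME library 1 gave -0.52 and leaving out oil library 2 gave -0.59. For GlyCCC the difference was 0.14 (SE 0.724, adjusted p = 0.979), with a sign that depended on the scaling. edgeR called 0 of the 282 features (percent called 0), with 48 at an unadjusted p under 0.05, and the DESeq2 Wald test called 6. Neither anticodon passed the threshold, with SEs near the size of the GlyGCC difference itself.

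Ratios within a library do not depend on scaling. The GlyCCC median copy was 0.217%, 0.205% and 0.256% of the GlyGCC median copy in water libraries 1 to 3 and 0.220%, 0.245% and 0.246% in EGME libraries 1 to 3. It was 0.229%, 1.23% and 0.242% with oil and 0.207%, 0.213% and 0.217% with CBZ. Oil library 2 stood apart above the other 11 libraries. On the log2 scale the mean ratio was -8.79 ± 0.166 for water against -8.70 ± 0.0799 for EGME (SD, n = 3 each, exact permutation p = 0.6). It was -7.92 ± 1.37 for oil against -8.86 ± 0.0337 for CBZ (SD, n = 3 each, exact permutation p = 0.1). Each CBZ library was below each oil library, and without oil library 2 the difference shrank from -0.94 to -0.15. On the TMM scale 19.7% of single features were separated in that direction.

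The chromosome 13 tier was also set against the tier of 8 genes, a ratio chosen after its values were seen and therefore given without a test. It was 14.4%, 16.9% and 15.0% in water libraries 1 to 3 and 9.33%, 14.5% and 11.4% in EGME libraries 1 to 3. With oil it was 16.2%, 13.4% and 13.4%, and with CBZ 12.3%, 12.4% and 12.4%. The EGME libraries overlapped the water libraries only through EGME library 2, and all CBZ libraries lay below all oil libraries. The means were 15.4% ± 1.29 and 11.7% ± 2.58 for water and EGME and 14.4% ± 1.63 and 12.4% ± 0.0435 for oil and CBZ (SD, n = 3 each). The difference between CBZ and oil was -1.99 percentage points, and -1.05 without oil library 1.

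**Figure D3:**
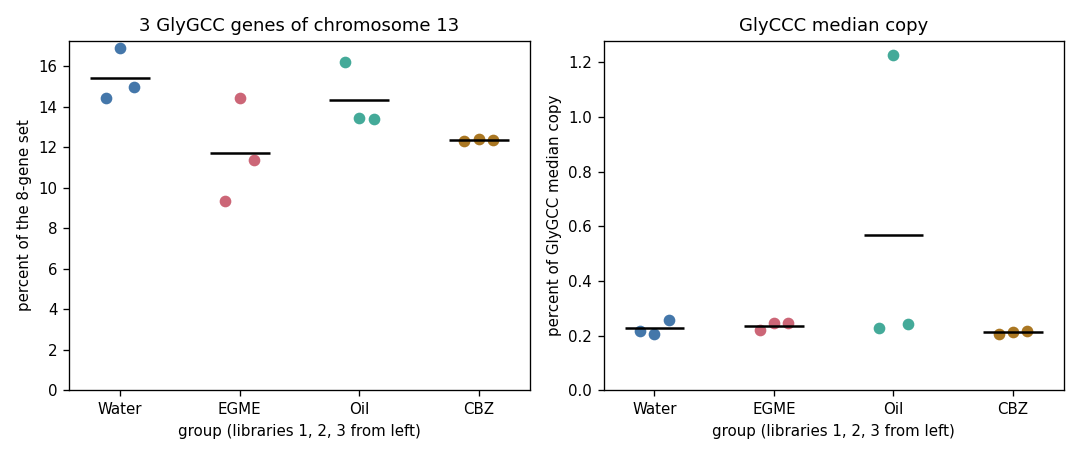
Ratios within each library by group (x axis): the 3 GlyGCC genes of chromosome 13 as percent of the tier of 8 genes (left), and the GlyCCC median copy as percent of the GlyGCC median copy (right). Points are libraries and lines are means; oil library 2 stands alone at 1.23% on the right, and the 3 CBZ libraries lie at 12.3 to 12.4% on the left.

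Among tRNA fragments glycine dominated in every library. The Gly median copies made up 93.2 to 94.7% of the tRNA counts with water, 93.0 to 96.9% with EGME, 87.5 to 96.6% with oil and 90.9 to 94.9% with CBZ, again with 1 row per anticodon. The group means were 93.9% ± 0.775 and 94.6% ± 2.04 for water and EGME (exact permutation p = 0.9) and 92.7% ± 4.68 and 92.9% ± 1.99 for oil and CBZ (SD, n = 3 each, exact permutation p = 1). The share of all tRNA rows in the counts, most of which is glycine, ran from 1.92% in EGME library 1 to 9.14% in water library 3.

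The other anticodons gave 45 rows in the water and EGME table, of which 9 passed the filter. All 9 were lower with EGME, at a median log2 difference of -1.19, and edgeR called 0. Of all 270 features tested 152 were lower, and the median over all was -0.07. Of the 9 rows 6 were lower in every EGME than in every water library, beside 13.3% of all features. ValAAC and ValCAC are in both counts with nearly equal reads, so these are not 9 separate signals. GlnCTG (-0.47) and LysTTT lay nearer to 0 than GlyGCC and the other 7 further from it. LeuTAG was at -2.28 (SE 0.507, edgeR adjusted p = 0.0859). ValAAC was at -1.74 (SE 0.440, edgeR adjusted p = 0.0934), ValCAC, with nearly the same counts, at -1.73, and LysCTT at -1.27 (SE 0.401, adjusted p = 0.184). HisGTG was at -1.15 (adjusted p = 0.262), GluCTC at -0.95 (adjusted p = 0.358) and LysTTT at -0.19 (adjusted p = 0.914). GluTTC and AspGTC had at most 11 and 2 reads and were not tested.

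With CBZ 9 of 43 other rows were tested, 6 higher and 3 lower, at a median of 0.52, and edgeR called 0. Of all 188 features tested 86 were higher, and the median over all was -0.15. ValAAC and ValCAC again had nearly the same counts. LysCTT was at 1.06 (SE 0.355, edgeR adjusted p = 0.124) and GluCTC at 0.68 (SE 0.300, adjusted p = 0.223), and in both the CBZ libraries all lay above the oil libraries, as they did for 13.3% of all features. ValAAC was at 0.87 (adjusted p = 0.399), ValCAC at 0.89 and HisGTG at 0.52 (adjusted p = 0.395). LysTTT was at -4.07 (SE 1.41, adjusted p = 0.130), with 20, 323 and 36 reads with oil, so that oil library 2 again stood apart, and 19, 13 and 12 with CBZ; its CBZ libraries all lay below the oil libraries, as for 19.7% of all features. The difference between glycine and these anticodons was not tested.

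**Figure D4:**
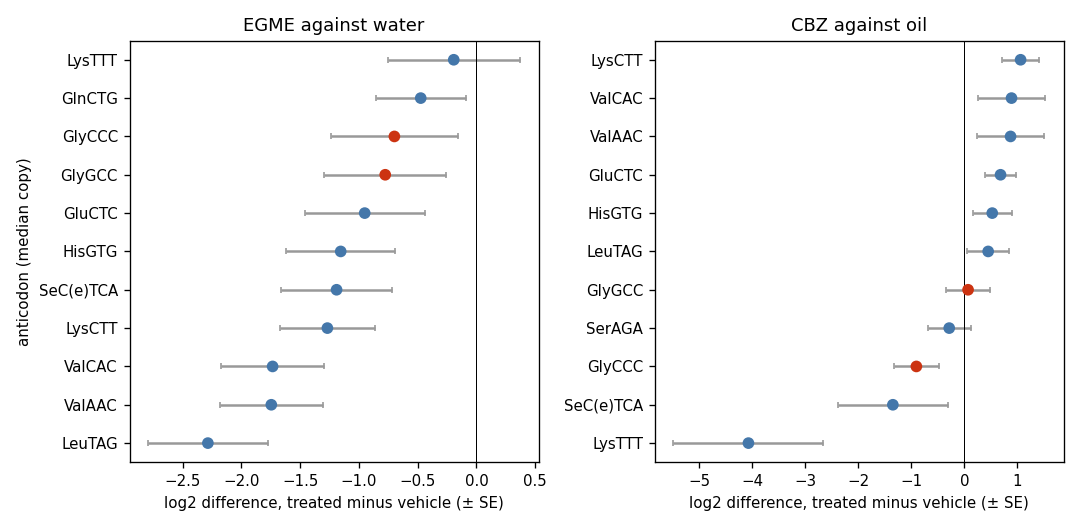
Log2 difference (x axis, treated minus vehicle, bars are 1 SE) of the median copy of each tested anticodon (y axis). Glycine is in red; with EGME all 11 tested anticodons are below 0, and with CBZ GlyGCC is at 0.07 and GlyCCC at -0.91.

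The features most like GlyGCC across the 12 libraries were looked for among 161 features outside glycine with a mean of at least 20 counts, by Pearson correlation of log2(TMM CPM + 1). The highest were piR-64201 (DQ614089.1piR-64201, r = 0.79), ValAAC (0.78), ValCAC (0.78), the hairpin transcript ENSRNOT00000053732.1 (0.69) and LysCTT (0.66). The lowest were piR-87274 (DQ620162.1piR-87274, r = -0.86), let-7c-5p (rno-let-7c-5p, -0.77) and miR-328a-3p (rno-miR-328a-3p, -0.73). With each group's mean removed the highest were piR-63455 (DQ603343.1piR-63455, r = 0.85) and piR-63454 (DQ603342.1piR-63454, r = 0.84), and piR-64201 was at 0.72. The lowest were then let-7c-5p (-0.94), piR-87274 (-0.91) and piR-88185 (DQ621073.1piR-88185, -0.86), and miR-328a-3p was at -0.76. These within-group values were added after they were seen, outside the rule for naming. All are descriptions over libraries that were scaled together, differ in depth, and give glycine a large part of their counts.

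Levels of blood cell and liver miRNAs are given for the whole lists. All 10 red blood cell miRNAs were detected in every library, and their summed level was 29118 to 33373 CPM with water and 35060 to 44875 CPM with EGME. With oil it was 31467 to 40390 CPM and with CBZ 26177 to 29824 CPM. The 6 white blood cell miRNAs summed to 1318 to 1600 CPM with water, 913 to 1170 CPM with EGME, 1324 to 1469 CPM with oil and 1196 to 1525 CPM with CBZ. Of 6 platelet miRNAs 5 were listed, at 8602 to 12586 CPM with water, 10589 to 12965 CPM with EGME, 13669 to 17169 CPM with oil and 15321 to 20341 CPM with CBZ. Of 3 liver miRNAs 2 were listed, at 972 to 2715 CPM with water, 1536 to 2870 CPM with EGME, 1740 to 1979 CPM with oil and 2035 to 5129 CPM with CBZ. The EGME libraries thus all lay above the water libraries for the red cell list and below them for the white cell list. The CBZ libraries all lay below the oil libraries for the red cell list and above them for the liver list. Among single features, 13.3% were lower in every EGME than in every water library. The share higher in every EGME library is not given here, so the red cell separation has no such share beside it. With CBZ 13.3% of features were higher and 19.7% lower in every library than with oil. Of the red cell list miR-486 had the highest mean count, 9708 over the 12 libraries, so the sum follows it closely. The directions of the single members are not given here, so the sums do not show a shift of the whole list. The part of blood and liver cells in the levels of glycine fragments was not tested.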

How the data were processed

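Small RNA of serum exosomes was sequenced on a MiSeq in 12 libraries, 3 in each of 4 groups, assigned by their titles. The authors deposited raw counts of reads per feature, 1 table for each toxicant with its vehicle, with totals of 196460 to 1235814 per library. They also deposited normalized signal, which equals the raw counts times 1 constant per library. The authors' own processing used edgeR, per the submitters' processing notes. For the aligner, the build and the treatment of reads matching several copies, nothing is given in the sources used here.

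Raw counts were filtered (filterByExpr, minimum count 10) and then scaled by TMM. edgeR 4.0.16 under R 4.3.3 fitted the whole table per toxicant (robust quasi-likelihood), with Benjamini-Hochberg adjustment and a threshold of 0.05. The fits were made gene by gene and with the genes of each anticodon replaced by their median copy (the lower median), sum or highest copy. The difference of effects was fitted on features named in both tables. Shares and log2 ratios (pseudocount 0.5) were compared by exact two-sided permutation tests (scipy 1.17.1). Each SE is the size of the log2 difference divided by the root of its F. Alternatives used DESeq2 1.42.0 and limma 3.58.1 (log2 of the authors' normalized signal plus 1). The edgeR procedure was tested on simulated data, in which features vary independently and no library stands apart in composition. That test therefore does not cover near-equal copies or single libraries that stand apart.

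Named genes were, per anticodon and comparison, the gene of median count and those with the highest and lowest log2 difference. For likeness they were the 5 highest and 3 lowest correlations. Members, lists and tests were chosen with earlier results of these data known.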

Additional observations from a re-analysis of the deposited data

How the results depend on the processing

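Over 228 combinations of a result and an alternative, 204 stayed the same and 22 changed sign. The other 2 passed the threshold where the reported value did not. For fitted log2 differences, the same means the same direction and side of the threshold. For the number of Gly genes called it means an equal number, 0, in 17 of 18 alternatives for EGME and 18 of 18 for CBZ. For shares and ratios only the sign was compared, since their permutation p cannot pass the threshold. Their replicate block leaves the difference unchanged by construction. The 204 thus include outcomes that could not differ. With no scaling GlyGCC in EGME against water was at -1.22. GlyCCC in CBZ against oil, reported at -0.91, was 0.0755 as the sum and 0.13 as the highest copy, both of which take in chr2.trna4358-GlyCCC. The GlyCCC difference of effects was -0.54 with upper quartile scaling, -0.60 with no scaling, -0.0369 with no filter, -0.0374 with TMM before the filter, -0.90 as the sum and -0.84 as the highest copy. The log2 ratio of GlyCCC to GlyGCC differed by -0.000217 in EGME against water with the highest copy, and in CBZ against oil by 0.00151 with the sum and 0.00104 with the highest copy. The Gly share of tRNA counts in CBZ against oil differed by -0.840 percentage points with sums. The cause of these changes was not tested. Leaving out each library moved the Gly genes called with EGME between 0 and 13, GlyGCC in CBZ against oil between -0.23 and 0.37, and the GlyCCC difference of effects between -0.91 and 0.50. It moved the Gly share of tRNA counts between -0.506 and 1.42 percentage points for EGME and between -2.37 and 2.20 for CBZ. Calls over all features for EGME went from 0 to 34 with upper quartile scaling, 27 with none, 12 with no filter, 14 with a filter of 10 counts in 3 libraries, 14 with TMM before the filter and 18 with the DESeq2 Wald test. For CBZ they went from 0 to 4 with no scaling, 21 with no filter, 24 with the Wald test, 17 with all 12 libraries in the fit and 26 without oil library 2. Limma on the authors' normalized values called 0 in both, and none of these settings called a Gly gene. The settings of TMM before the filter and of near-identical copies counted once were chosen after seeing the data; the latter left 4 Gly signals tested for EGME and 3 for CBZ, with 0 called. GlyTCC and its ratio to GlyGCC could not be fitted, at a median copy of 0 or 1 read.

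Whether the replicate numbers pair the libraries could not be decided from the correlations between libraries. Same-numbered libraries correlated at 0.40, 0.34 and -0.12 for water and EGME and at -0.08, 0.07 and 0.34 for oil and CBZ. Differently numbered libraries ran from -0.50 to 0.22 for water and EGME and from -0.21 to 0.16 for oil and CBZ. With the replicate block edgeR called 0 Gly genes in either comparison and 33 features in all for EGME. GlyGCC was at -1.04 for EGME (edgeR adjusted p = 0.154) and 0.15 for CBZ, GlyCCC at -0.91 and -0.79, and the GlyCCC difference of effects at -0.16.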
